A study of Danio rerio with 6 samples.

Results

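The zebrafish miRNAs numbered miR-141, miR-200, miR-203, miR-205 and miR-429 were taken from the normalized counts of ovarian follicular cells by name, whatever their arm or letter. This gave 8 of the 289 listed miRNAs: dre-miR-141-3p, dre-miR-200a-5p, dre-miR-200b-3p, dre-miR-200c-3p, dre-miR-203a-3p, dre-miR-203b-3p, dre-miR-205-5p and dre-miR-429a. The rule itself uses names only. Small RNA had been sequenced from 3 samples of stage IIIa and 3 samples of stage IIIb follicular cells of female zebrafish (Danio rerio) from a commercial supplier, with no genotype, treatment or age given in the labels. Both stages are in vitellogenesis, the phase of yolk uptake, which has just begun in stage IIIa and is well advanced in the larger stage IIIb follicles. Each sample pooled the cell layers stripped with forceps from many follicles of several fish, so a sample is a mixture of fish and of all cells in the layer. A lower value in such a mixture cannot tell fewer cells of a type from less of the miRNA per cell.

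miRNAs guide silencing complexes to messenger RNAs that pair with the seed, the bases 2 to 8 of the mature miRNA. In vertebrates the miR-200 family (miR-141, miR-200 and miR-429) is known for repressing the transcription factors ZEB1 and ZEB2, themselves repressors of E-cadherin, and so for holding cells in an epithelial state. In mice miR-200b and miR-429 of the pituitary are needed for ovulation, and in zebrafish members of the family act in the ionocytes of the skin. miR-203 represses the epidermal stem cell factor p63 in mouse skin, and miR-205 is an epithelial miRNA that can also repress ZEB factors in mammalian cells. The granulosa cells that line the oocyte form an epithelium, while theca and blood of the same layer do not. Whether the layers held other epithelial cells was not tested.

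The mature sequences listed in the deposited files are shown because they set which members share targets and which can hardly be told apart in the reads. Seeds are in capitals, and all 8 sequences were 22 nt long. How well counts compare between miRNAs of different sequence was not tested.
dre-miR-141-3p: tAACACTGtctggtaacgatgc
dre-miR-200b-3p: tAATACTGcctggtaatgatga
dre-miR-200c-3p: tAATACTGcctggtaatgatgc
dre-miR-429a: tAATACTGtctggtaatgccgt
dre-miR-200a-5p: cATCTTACcggacagtgctgga
dre-miR-203a-3p: gTGAAATGtttaggaccacttg
dre-miR-203b-3p: gTGAAATGttcaggaccacttg
dre-miR-205-5p: tCCTTCATtccaccggagtctg

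miR-200b, miR-200c and miR-429a shared 1 seed, and no further miRNA of the 289 had it. The seed of miR-141 was that of these 3 with the single change C4T, read from miR-141 to miR-200b and counted from the 5′ end. Both miR-203 shared their seed with each other alone, and miR-205 and miR-200a-5p had seeds that no other listed miRNA had. miR-200a-5p comes from the arm opposite to that of miR-200b, miR-200c and miR-429a, and dre-miR-200a-3p was not among the 289. miR-200b and miR-200c differed only by A22C, the last base, and miR-203a and miR-203b only by T11C. By contrast, no listed miRNA outside the 8 came closer than 9 mismatches to any of them, compared base by base from the 5′ end.

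The genes of all 8 were found in the RefSeq annotation of the assembly GRCz12tu, which is not the build named in the labels (GRCz11), so only their order was used. mir141 and mir200c were neighbours on 1 chromosome, with 0 other annotated genes starting between them. mir429b, whose miRNA was not listed, lay on the other side of mir141. mir200b, mir200a and the miR-429a gene formed a cluster on another chromosome. The miR-205 gene lay on that same chromosome, with 262 genes starting between it and the miR-429a gene. mir203a and mir203b were on separate chromosomes from each other and from both clusters.

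The values are normalized counts, meaning read counts that the authors divided by a library size parameter of each sample. Summed over the 289 miRNAs they came to between 1779302 and 2196896 in stage IIIa and between 1819026 and 3166619 in stage IIIb. In each sample between 82.8% and 85.9% of the values under 400 were whole multiples of 1 step (tolerance 0.01 of a step), which was taken as the worth of 1 read. On this basis stage IIIa replicate 1 held the fewest reads on miRNAs, 1129114, and stage IIIb replicate 3 the most, 9045233. miRNAs with few reads are therefore measured worst in the former. Replicates of a stage differed by far more than counting error, as the lowest ratio of chi-square to degrees of freedom for a pair was 250.009, and each was counted as 1 sample.

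All 8 miRNAs were above 0 in every sample. This is common in the list, as only between 1 and 9 of the 289 were at 0 in a sample. The study's methods required at least 100 counts in all replicates of either stage for a miRNA to be kept. miR-200a-5p, miR-203a, miR-203b and miR-205 did not reach this in either stage, in normalized counts or in recovered reads. To which counts the rule was applied is not given in the sources used here. The summed share of the family in the total was 0.168% ± 0.0399 (SD, n = 6). miR-141 had by far the highest counts of the 8, with a mean of 2460 ± 1299 normalized counts (SD, n = 6) and rank 70 among the 289. miR-200b with 419 ± 120.5, miR-200c with 412 ± 236 and miR-429a with 377 ± 177 (SD, n = 6 for each) formed a middle group at ranks 132 to 139. miR-203b with 94.8 ± 47.1, miR-205 with 74.8 ± 42.5, miR-200a-5p with 48.3 ± 21.4 and miR-203a with 48.0 ± 38.8 (SD, n = 6 for each) were low, the last at rank 244. Most of the counts of the family thus stood under miR-141. It made up between 59.0% and 69.4% of the 5 miR-141, miR-200 and miR-429 members in each sample. Whether its counts include reads of dre-miR-200a-3p was not tested.

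In this order of mean counts, miR-141 exceeded miR-200b in 6 of 6 samples (mean log2 ratio 2.47 ± 0.41, SD) and miR-429a exceeded miR-203b in 6 of 6 (2.04 ± 1.29, SD). An exact two-sided sign-flip permutation test over the 6 samples gave p = 0.0312 for each, the smallest it allows, and 0.109 after Benjamini-Hochberg adjustment over the 7 neighbouring pairs. The order was taken from the means of these same samples, so these p-values do not test an order set beforehand. The other 5 neighbours in the order swapped places between samples, with the more abundant one higher in only 3 or 4 of 6 samples. miR-200b and miR-200c, for instance, had a mean log2 ratio of 0.19 ± 0.74 (SD, n = 6, exact permutation p = 0.562). The order within the middle group and within the low group was therefore not larger than the spread between samples.

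**Figure D1:**
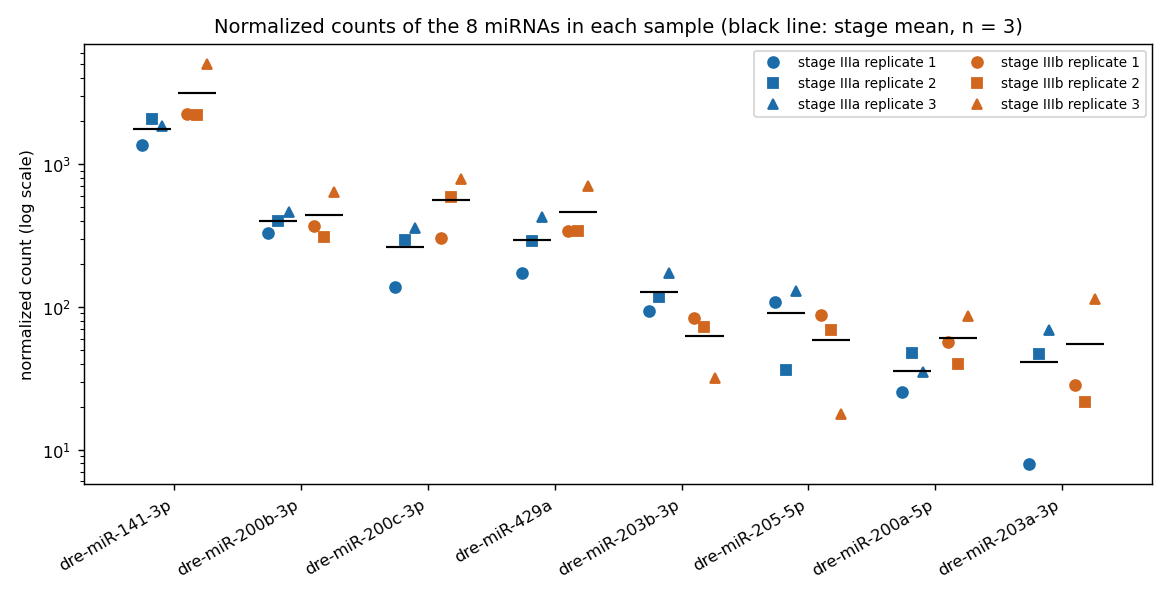
Normalized count (log axis) of each of the 8 miRNAs in each sample, ordered by mean. Blue marks the 3 stage IIIa samples, orange the 3 stage IIIb samples, shapes the replicate number and black lines the stage means. miR-141 lies at or above 1365 in every sample, and stage IIIb replicate 3 (orange triangle) is the highest sample for 6 miRNAs and the lowest for miR-203b and miR-205.

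How the counts were assigned differed among the members. miR-203a, miR-203b, miR-205 and miR-429a corresponded to whole reads in 6 of 6 samples. miR-200b and miR-200c fell between whole reads in 5 of 6 samples each, and in all 6 their fractional parts were the same as each other. miR-141 fell between whole reads in 3 samples and miR-200a-5p in 1. The alignment allowed 1 mismatch, and whether reads of dre-miR-200a-3p were counted under miR-141 was not tested. Whether reads common to miR-200b and miR-200c had been divided between them was not tested, and the separate levels of these 2 are uncertain for that reason. Their sum was not a whole number of reads either in 3 samples, at 1270.33 and 1530.67 reads in stage IIIa replicates 2 and 3 and 1082.67 in stage IIIb replicate 2, so it is uncertain as well.

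As an epithelial set these 8 miRNAs summed to between 2242 and 7404 normalized counts in a sample. In every sample the mesenchymal, miR-202, endothelial and leukocyte miRNAs below summed to more, and those of muscle, liver, neurons and miR-430 to less. The red blood cell miRNAs summed to more except in stage IIIb replicates 2 and 3. The 10 listed miRNAs of a mesenchymal list (miR-140, miR-143, miR-145, miR-199, miR-214 and miR-218) summed to between 10.9% and 21.9% of the counts of a sample, mostly miR-143, and both arms of the gonadal miR-202 to between 16.0% and 23.4%. The endothelial miR-126 took between 1.40% and 2.19%. The 6 red blood cell miRNAs (miR-144, miR-451 and miR-2188) summed to between 19142 and 32402 normalized counts in stage IIIa and between 2863 and 5142 in stage IIIb, and limma called each of the 6 lower in stage IIIb after adjustment. Leukocyte miRNAs (miR-142, miR-150 and miR-223) summed to between 6405 and 11325 in stage IIIa and between 4450 and 10228 in stage IIIb. Of the muscle list miR-133a alone was listed, at 32.1 to 161 normalized counts, while miR-1 and miR-206 were not. The liver miRNA miR-122 was listed at 0 in 1 sample and reached 784 in stage IIIb replicate 2. Neuronal miR-9 summed to between 43.1 and 132.9, with miR-124 not listed, and the embryonic miR-430 to between 259.8 and 1489. The part that the makeup of the layers has in the values of the 8 miRNAs was not tested.

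The study asked how miRNAs differ between follicles before and after they gain the ability to mature. Between the stages none of the 8 miRNAs passed the test across all miRNAs. miR-200c had the largest difference upward and miR-203b the largest downward. The comparison used limma on log2(normalized count + 1), two-sided, with Benjamini-Hochberg adjustment over the 289 miRNAs, a scale that understates changes of miRNAs with few counts. It called 0 of the 8 at an adjusted p under 0.05, against 4.50% of all 289 (2.42% higher and 2.08% lower in stage IIIb). By unadjusted p (0.05 or less) it called 1 of the 8, miR-200c, as higher, against 14.9% of all (28 miRNAs or 9.69% higher and 15 or 5.19% lower). With voom weights on the recovered reads limma called 0 and 2 of the 8 by these rules, against 12 and 40 of the 289. The equal-variance test of the study's methods called 0 and 0 of the 8, against 0 and 32 of the 289.

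The values of stage IIIb lay entirely above those of stage IIIa for 1 of the 8, miR-141, against 11.8% of all 289, and entirely below for 1, miR-203b, against 7.96% (19.7% in both directions). The scaling of the samples moves every fold change, since the median over the 289 was 0.15 as deposited and -0.16 after rescaling to equal totals. With equal totals the adjusted calls were 0 of the 8, against 4.50% of all (1.73% higher and 2.77% lower). By unadjusted p 1 of the 8 was then called, miR-203b as lower, against 21.5% of all (20 miRNAs or 6.92% higher and 42 or 14.5% lower). On that scale only miR-203b had stages that did not overlap, and it was lower, against 29.1% of all (10.7% higher and 18.3% lower). Counts of 0 to 2 among 8 miRNAs lie near these shares and are no result about the family.

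miR-141, whose seed differs by 1 base from that of miR-200b, miR-200c and miR-429a, had 1365, 2073 and 1844 normalized counts in stage IIIa and 2235, 2214 and 5028 in stage IIIb. Values here and in what follows are given in the order of the replicate numbers. All stage IIIb samples were above all stage IIIa samples, with stage IIIb replicate 3 far above the rest. The log2 fold change of stage IIIb over stage IIIa was 0.75 (SE 0.39, 95% interval -0.11 to 1.61, limma adjusted p = 0.386). As shares of the total the stages overlapped, at 0.0767%, 0.0944% and 0.0897% in stage IIIa and 0.123%, 0.0828% and 0.159% in stage IIIb, and the log2 fold change was 0.44 with equal totals. Without stage IIIb replicate 3 it was 0.36 (SE 0.31).

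miR-200c, the neighbour of miR-141 in the genome, had 138, 294 and 358 normalized counts in stage IIIa and 302, 588 and 790 in stage IIIb. Only stage IIIb replicate 1 lay within the range of stage IIIa. The log2 fold change was 1.09 (SE 0.48, 95% interval 0.042 to 2.13, unadjusted p = 0.0428, limma adjusted p = 0.314), and 0.78 with equal totals (unadjusted p = 0.0598, limma adjusted p = 0.251). The unadjusted call was lost without stage IIIa replicate 1 or 2 or without stage IIIb replicate 2 or 3, with fold changes of 0.68, 1.22, 0.999 and 0.79 in that order. miR-200b, which has the same seed, had 332, 402 and 465 in stage IIIa and 368, 311 and 639 in stage IIIb. Its stages overlapped widely, with a log2 fold change of 0.079 (SE 0.38, 95% interval -0.76 to 0.92, limma adjusted p = 0.943) that turned to -0.23 with equal totals, to -0.049 without stage IIIa replicate 1 and to -0.23 without stage IIIb replicate 3.

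miR-429a, the third member with this seed, had 172, 291 and 426 normalized counts in stage IIIa and 338, 341 and 697 in stage IIIb. Stage IIIb replicates 1 and 2 lay within the range of stage IIIa, and the log2 fold change was 0.64 (SE 0.45, 95% interval -0.34 to 1.62, limma adjusted p = 0.534). miR-200a-5p had 25.2, 47.2 and 34.9 in stage IIIa and 56.5, 39.8 and 86.3 in stage IIIb, again overlapping, with a log2 fold change of 0.73 (SE 0.58, 95% interval -0.54 to 1.99, limma adjusted p = 0.590). With equal totals these 2 fold changes were 0.33 and 0.42, and without stage IIIb replicate 3 they were 0.29 and 0.44. That of miR-429a was also 0.29 without stage IIIa replicate 1. Both intervals include changes of more than 1 on the log2 scale, so these data do not exclude a difference of that size for either miRNA.

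miR-203b, of the epidermal miR-203 pair, had 93.0, 117 and 172 normalized counts in stage IIIa and 83.3, 72.2 and 31.5 in stage IIIb. All stage IIIb samples were below all stage IIIa samples, also as shares of the total. The log2 fold change was -1.08 (SE 0.52, 95% interval -2.21 to 0.045, limma adjusted p = 0.339), and -1.39 with equal totals (adjusted p = 0.217). It was -0.66 (SE 0.42) without stage IIIb replicate 3. The red blood cell miRNAs above fell between the same stages, and their part in the values of miR-203b was not tested. miR-203a, with the same seed, had 7.88, 46.6 and 69.3 in stage IIIa and 28.3, 21.6 and 114 in stage IIIb. The lowest of these stood for 5 reads, with an exact Poisson 95% interval of 2.56 to 18.4 normalized counts that covers counting error only. Its stages overlapped, and its log2 fold change of 0.45 (SE 0.90, 95% interval -1.53 to 2.43, limma adjusted p = 0.849) was 0.15 with equal totals and turned to -0.27 without stage IIIb replicate 3 and to -0.45 without stage IIIa replicate 1.

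miR-205 had 109, 36.2 and 129 normalized counts in stage IIIa and 88.3, 68.9 and 17.9 in stage IIIb. 2 of the stage IIIb samples lay within the range of stage IIIa and stage IIIb replicate 3 lay below it, at 51 reads of the deepest library. The log2 fold change was -0.72 (SE 0.71, 95% interval -2.27 to 0.82, limma adjusted p = 0.659), and -1.03 with equal totals. It was -0.035 without stage IIIb replicate 3, -0.38 without stage IIIa replicate 3, -1.16 without stage IIIb replicate 1 and -1.29 without stage IIIa replicate 2. The size of the difference thus depended on single samples of both stages.

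**Figure D2:**
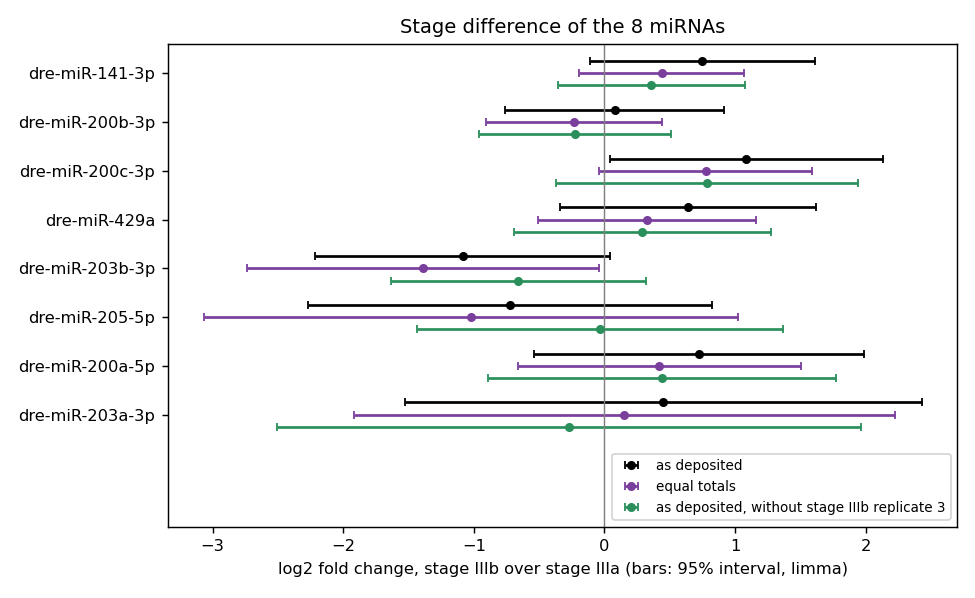
Log2 fold change of stage IIIb over stage IIIa (x axis) for each of the 8 miRNAs, with 95% intervals from limma, as deposited (black), with equal totals (purple) and without stage IIIb replicate 3 (green). The as-deposited value is highest for miR-200c (1.09) and lowest for miR-203b (-1.08), and without stage IIIb replicate 3 every interval includes 0.

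No summed level passed its test between the stages. miR-141, miR-200 and miR-429 together took 0.114%, 0.141% and 0.152% of the counts in stage IIIa and 0.181%, 0.131% and 0.229% in stage IIIb. The means were 0.136% ± 0.0196 and 0.180% ± 0.0490 (SD, n = 3), with p = 0.30 in an exact two-sided permutation test, which for 3 samples against 3 cannot go below 0.10. As summed normalized counts the stages did not overlap, the mean being 2756 ± 627 before and 4678 ± 2221 after (SD, n = 3 a stage, exact permutation p = 0.10). miR-203 and miR-205 together took 0.0118%, 0.00909% and 0.0180% in stage IIIa and 0.0110%, 0.00608% and 0.00516% in stage IIIb (exact permutation p = 0.20). These 2 sums differed in opposite directions between the stages.

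Ratios within a sample do not depend on the scaling, and 4 such shares were computed after the values had been seen. miR-200c made up 29.4%, 42.2% and 43.5% of miR-200b and miR-200c together in stage IIIa and 45.1%, 65.4% and 55.3% in stage IIIb. Every stage IIIb sample was above every stage IIIa sample, with means of 38.4% ± 7.84 and 55.3% ± 10.2 (SD, n = 3, exact permutation p = 0.10, 0.20 adjusted over the 4 shares). Both miRNAs fell between whole reads in 5 of 6 samples, and whether reads common to them had been divided was not tested. The share is uncertain for that reason, which intervals of counting error do not cover. The gap between stage IIIa replicate 3 and stage IIIb replicate 1 was within counting error, with Wilson 95% intervals of 41.0% to 46.0% and 42.0% to 48.3%. miR-429a likewise made up 34.1%, 41.9% and 47.8% of itself and miR-200b in stage IIIa and 47.8%, 52.3% and 52.2% in stage IIIb (exact permutation p = 0.10, adjusted 0.20), with stage IIIa replicate 3 and stage IIIb replicate 1 equal to the digits shown. Both shares contain miR-200b, so they are not independent of each other, and the uncertain level of miR-200b enters both.

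The miR-203 pair behaved differently. In 4 samples miR-203a made up between 23.0% and 28.7% of both miR-203, namely 28.5% and 28.7% in the latter 2 of stage IIIa and 25.3% and 23.0% in the former 2 of stage IIIb, values whose Wilson 95% intervals overlapped. In stage IIIa replicate 1 it was 7.81%, from 5 of 64 reads (interval 3.38% to 17.0%), and in stage IIIb replicate 3 it was 78.4%, from 326 of 416 reads (interval 74.2% to 82.1%). The 2 samples with the fewest and the most reads therefore stood apart from the other 4 in opposite directions. The high value was beyond counting error of all others, while the interval of the low one overlapped that of stage IIIb replicate 2 (16.2% to 31.6%). Between the stages the share did not separate (difference of means 20.5 percentage points, exact permutation p = 0.60), and the difference was 2.47 without stage IIIb replicate 3. miR-203a and miR-203b corresponded to whole reads in all 6 samples. The part of depth in this share was not tested.

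**Figure D3:**
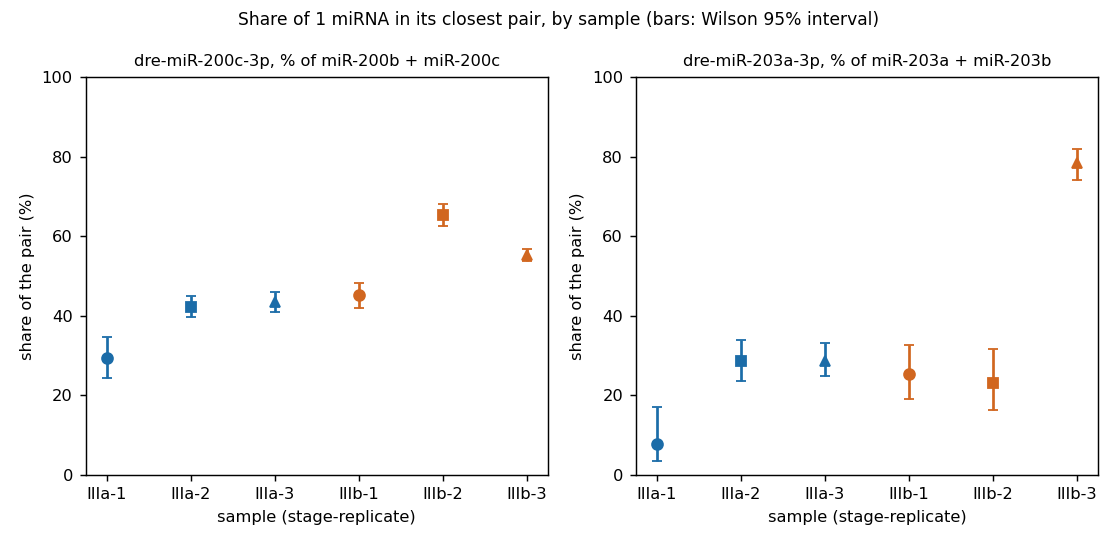
Share (%) of miR-200c in miR-200b and miR-200c (left) and of miR-203a in miR-203a and miR-203b (right) in each sample, with Wilson 95% intervals from recovered reads. Blue is stage IIIa and orange stage IIIb. The left share is uncertain beyond its intervals, as whether reads common to miR-200b and miR-200c had been divided was not tested. The left share is at or below 43.5% in stage IIIa and at or above 45.1% in stage IIIb, and the right share lies between 23.0% and 28.7% in 4 samples, with 7.81% and 78.4% in the others.

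Across the 6 samples the deposited values of 6 members went together and those of miR-203b and miR-205 went against them. Of the 10 pairs among miR-141, miR-200a-5p, miR-200b, miR-200c and miR-429a, all 10 had a positive Pearson r of log2 values, with a median of 0.82 and a range of 0.55 to 0.94. miR-203a went with these 5 (r from 0.73 to 0.91), whereas miR-203b and miR-205 went against them in all 10 pairs (r from -0.85 to -0.44, median -0.63). Over the 28 pairs none had an exact permutation p that passed 0.05 after Benjamini-Hochberg adjustment, for Pearson's r or Spearman's rho, and 6 had an unadjusted p under 0.05 for Pearson's r. For rho over 6 samples the exact permutation p cannot go below 0.00278. A single pair could therefore not pass for rho after adjustment over 28 pairs, whatever its ranks. For comparison, the median r over all 41616 pairs of the 289 miRNAs was 0.19, and 8.47% of those pairs reached 0.82 or more.

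High values were found between clusters as well as within them. Within the cluster of 3, r was 0.70 for miR-200a-5p and miR-200b and 0.82 for each of these with miR-429a. Between clusters r went from 0.55, for miR-200b and miR-200c, to 0.94. miR-141 and miR-200a-5p, whose genes lie in separate clusters, had r = 0.94 (exact permutation p = 0.00417, adjusted 0.117) and rho = 0.94 (exact permutation p = 0.0167, adjusted 0.156), and r = 0.71 without the 2 samples farthest from the median of miR-141. Whether the reads counted as miR-141 all came from its own cluster was not tested, so this pair may not lie wholly between clusters. miR-200c and miR-429a, also from separate clusters, had r = 0.90 (exact permutation p = 0.0236, adjusted 0.156) and rho = 0.94 (exact permutation p = 0.0167, adjusted 0.156), but r = 0.21 without the 2 farthest samples. miR-141 and miR-200c, which are neighbours, had r = 0.85 (exact permutation p = 0.0514) and rho = 0.71 (exact permutation p = 0.136), and r = 0.22 without the 2 farthest. miR-203b and miR-205 had r = 0.75 (exact permutation p = 0.0847) and rho = 0.66 (exact permutation p = 0.175), and r = -0.59 without the 2 farthest. Over the 10 pairs of the miR-141, miR-200 and miR-429 members, the median r went from 0.82 to -0.040 when the 2 samples farthest from the median of the first miRNA of each pair were left out. For the 10 pairs of miR-203b or miR-205 with these members it went from -0.63 to -0.35 (range -0.97 to 0.90). Leaving out the extreme samples of a pair also narrows its range, and 4 samples then remain.

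Depth moved with the same values. On the log2 scale, Pearson r with recovered reads was 0.81 (miR-200b) to 0.94 (miR-203a) for the 6 miRNAs that went together. Their rho was 0.49 (miR-141) to 0.89 (miR-203a). For miR-203b r was -0.48 (rho -0.14) and for miR-205 it was -0.76 (rho -0.66). Stage IIIa replicate 1, with the fewest reads and the lowest total, was the lowest sample for 5 of the 8 miRNAs. Stage IIIb replicate 3, with the most reads and the highest total, was the highest for 6 and the lowest for the other 2. After rescaling to equal totals, stage IIIb replicate 3 was still the highest for 4 and the lowest for 2, and stage IIIa replicate 1 the lowest for 5. The median r of the 10 pairs was then 0.56 (range -0.19 to 0.88), and 20.2% of all pairs of miRNAs on that scale reached this median. Without the 2 farthest samples it was 0.41. The pairs of miR-203b or miR-205 with the 5 then had a median r of -0.40, with 2 of 10 positive and 0 at an unadjusted exact permutation p under 0.05 (0 after adjustment). miR-141 and miR-200a-5p kept r = 0.88 (exact permutation p = 0.0139, adjusted 0.311) and rho = 0.94 (exact permutation p = 0.0167, adjusted 0.233), while miR-200b and miR-200c had r = -0.19 (exact permutation p = 0.671) and rho = 0.09 (exact permutation p = 0.919). With the stage means removed from the deposited values, the median of the 10 pairs was 0.84, and 0.81 without the 2 farthest samples. The part of depth in these relations was not tested.

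**Figure D4:**
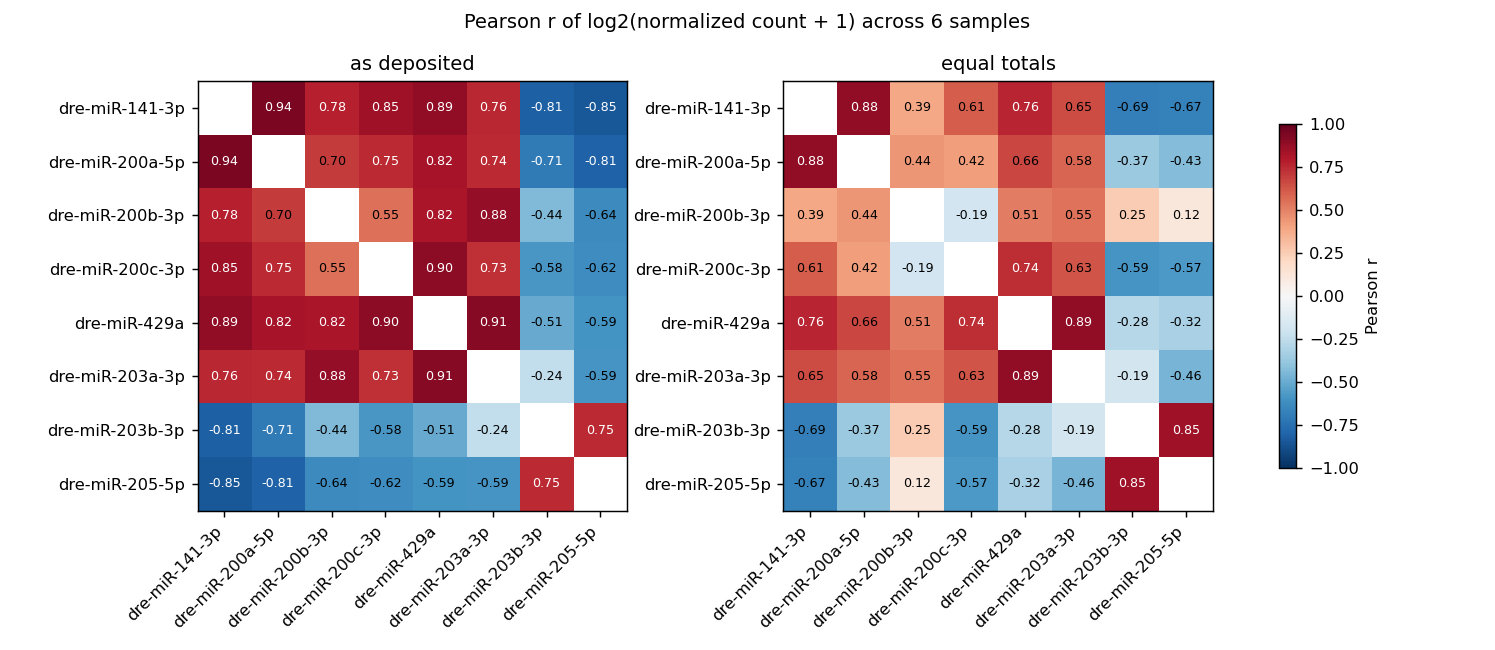
Pearson r across the 6 samples for each pair of the 8 miRNAs, from log2(normalized count + 1), as deposited (left) and after rescaling to equal totals (right). Red is positive and blue negative. On the left the first 6 miRNAs form a red block (0.55 to 0.94) against miR-203b and miR-205, and on the right the block is paler, with miR-200b and miR-200c at -0.19.

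The miRNAs outside the 8 with the most similar profiles were sought on values with equal totals, as a description over 6 samples. For the sum of miR-141, miR-200 and miR-429 these were dre-mir-146a-p3 (r = 0.91), dre-let-7h (0.90) and dre-miR-212-5p (0.89), each lowest in stage IIIa replicate 1 and highest in stage IIIb replicate 3 in deposited counts. For miR-203b they were dre-miR-301c-3p (r = 0.98), PC-5p-19218_304 (0.96, PC being the study's prefix for predicted miRNAs) and dre-miR-93 (0.95), but in deposited counts only PC-5p-19218_304 stayed close (0.93, against 0.19 and 0.43). For miR-205 they were dre-miR-34c-5p (r = 0.97), dre-miR-202-3p (0.93) and PC-3p-20924_279 (0.88). In deposited counts dre-miR-202-3p was at 0.74 and PC-3p-20924_279 at 0.53. dre-miR-34c-5p, of a family known from multiciliated epithelia, stayed at 0.93 there. Its normalized counts were 59.9, 34.002 and 68.3 in stage IIIa and 74.2, 58.1 and 30.8 in stage IIIb, so that like miR-205 it was low in stage IIIa replicate 2 and lowest in stage IIIb replicate 3.

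Beside the miR-200 family stood other epithelial miRNAs. A second list, of other epithelia, held miR-31, miR-34, miR-182, miR-184, miR-192, miR-194 and miR-375, while its miR-96, miR-183 and miR-215 were not among the 289. Its 11 listed miRNAs were led by miR-192, an intestinal and renal miRNA with a mean of 8828 normalized counts. They summed to 2277, 13469 and 6812 in stage IIIa and 5612, 27177 and 3065 in stage IIIb. This sum, which is mostly miR-192, was highest in stage IIIb replicate 2 and lowest in stage IIIa replicate 1. The summed normalized counts of miR-141, miR-200 and miR-429 were also lowest in stage IIIa replicate 1 (2032). They were 3494 in stage IIIb replicate 2 and highest in stage IIIb replicate 3 (7240), where the other sum was 3065. A relation between the 2 sums was not tested. In limma 0 of the 11 and 0 of the 10 mesenchymal miRNAs passed an adjusted p of 0.05, against 4.50% of all 289. By unadjusted p (0.05 or less) 1 and 0 were called, against 14.9% of all 289. The 1 was dre-miR-31, named after its values were seen, higher in stage IIIb by 1.82 on the log2 scale (SE 0.56, adjusted p = 0.105 in limma). The median log2 fold change was 0.54 for the 8 miRNAs, 0.17 for the other epithelial list and 0.25 for the mesenchymal list, beside 0.15 for all 289. With equal totals these were 0.24, -0.13 and -0.06, beside -0.16.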

How the data were processed

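The authors processed the reads with ACGT101-miR, removed other RNA families and repeats, and aligned unique sequences to precursors of miRBase and the zebrafish genome, allowing 1 mismatch. Its version is not given in the sources used here. The deposited signal, 1 value per miRNA and sample, is the count divided by the library size parameter of the sample, not raw counts. Groups and replicate numbers come from the sample labels, and each stage has 3 samples. Members and lists were chosen with earlier results of these data known. All 8 members are named, with the 3 miRNAs most like each of 3 profiles.

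The stage comparison was fitted to log2(normalized count + 1) by limma 3.58.1 (R 4.3.3), with a mean-variance trend and no filter beyond the authors' own. The study's own test, an equal-variance comparison of 2 groups, was an alternative because 3 samples a stage are few. Sums and shares were compared by exact permutation over the 20 assignments of 6 samples, and correlations over all 720 orderings (scipy 1.17.1). The fit was tested on simulated data. Reads recovered from the step of the values were used for the replicate chi-square, the intervals and the voom fit, which takes them as its values. They were rounded to whole reads except in the Poisson intervals. Intervals cover counting error only. Alternatives were pseudocounts of 0.1 and 10, a minimum mean of 100, 3 rescalings, no trend, voom, the replicate number as a block and each sample left out. Chosen after seeing the data were the within-sample shares and 3 combinations with equal totals. The pools of a stage are separate samples, and whether both stages came from the same fish is not given in the sources used here.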

Additional observations from a re-analysis of the deposited data

How the results depend on the processing

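None of the 8 miRNAs had an adjusted p under 0.05 in any of the 18 alternatives, and the lowest was 0.0906, for miR-200c with the replicate number as a block. Of the 8, 1 had an unadjusted p of 0.05 or less (43 of all 289). There were 2 with the median of ratios, the equal upper quartile and voom (67, 60 and 40 of all), 0 without the trend, with the equal-variance test and with equal totals without stage IIIb replicate 3 (36, 32 and 53 of all), and 0 to 2 with 1 sample left out (29 to 62 of all). The number with a positive difference was 6 of 8 as deposited and from 4 to 6 with 1 sample left out. miR-200b turned negative with equal totals (-0.23, also with the block), the median of ratios (-0.092), the upper quartile (-0.13), without stage IIIa replicate 1 (-0.049), without stage IIIb replicate 3 (-0.23) and with equal totals without the latter (-0.37), and reached 0.29 without stage IIIb replicate 2. miR-203a turned negative without stage IIIa replicate 1 (-0.45), without stage IIIb replicate 3 (-0.27) and with equal totals without the latter (-0.40), and reached 1.04 without stage IIIa replicate 3. The other 6 kept their direction in every alternative that gave them a value. A minimum mean of 100 left out miR-200a-5p, miR-203a, miR-203b and miR-205. The summed share kept its direction in every alternative, with a log2 ratio of 0.33 (0.14 to 0.52 with 1 sample left out, 0.094 without miR-141, 0.69 for summed counts as deposited and 0.55 over a total without the 10 most abundant miRNAs) for the 8 miRNAs, 0.41 (0.20 to 0.59, and 0.26, 0.76 and 0.62 in the same order) for miR-141, miR-200 and miR-429, and -0.81 (-1.20 to -0.49) for miR-203 and miR-205. The median correlation of 0.82 was 0.56 with equal totals, 0.84 with the stage means removed, 0.72 with both and 0.82 with a pseudocount of 10. On none of these scales did any of the 10 pairs pass 0.05 in the permutation test over all 720 orderings after adjustment. With the stage means removed these orderings still mixed the stages, so the test is only approximate there. Without the 2 farthest samples the 0.82 became -0.040, and the 0.72 became 0.66. The share of miR-200c in its pair differed by 16.9 percentage points between the stages (11.8 to 21.98 with 1 sample left out), and that of miR-203a by 20.5 (2.47 to 30.2, the lowest without stage IIIb replicate 3). The cause of these shifts was not tested.

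Over all 289 miRNAs, 13 had an adjusted p under 0.05, 7 without stage IIIa replicate 2 or stage IIIb replicate 3 (7 to 12 with 1 sample left out), 8 with equal totals without the latter and 0 with the equal-variance test, where 32 had an unadjusted p of 0.05 or less. With equal totals 5 were higher and 8 lower, against 7 and 6 as deposited. With the replicate block 9 passed, and 7 with the block and equal totals. Deviations of samples with the same number correlated at 0.103, 0.280 and -0.0336, so the numbers were not taken to pair the samples, and not every sample correlated best with its own number. Few reads limit miR-203a and miR-200a-5p most, with 5 and 16 reads in stage IIIa replicate 1.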
